A study of Mus musculus with 11 samples.

Results

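The chemokines examined here are the CC ligands Ccl2, Ccl7, Ccl8, Ccl12, Ccl3, Ccl4, Ccl6, Ccl9 and Ccl24, which attract monocytes, macrophages and their relatives, together with the receptor gene Ccr2. They were listed by gene symbol, with earlier results of these data known, and all 10 were found among the 55421 genes of the count table. Heart RNA of 11 female C57BL/6J mice, 8 weeks old, was sequenced 3 days after surgery, with 1 library per mouse. In 8 mice the left anterior descending coronary artery was permanently ligated, which causes a myocardial infarction (MI), and tissue of the infarct and its border zone was taken. An osmotic minipump delivered the hydroxamate ADAM10 inhibitor GI254023X (A10i) at 100 mg/kg to 4 of them and its solvent DMSO to the other 4. A sham operation was done on 3 further mice, also given DMSO, and their samples are healthy heart tissue, so sham and infarcted hearts differ in the region sampled as well as in the injury. The labels name no genetic change in these mice, and the inhibitor was given to the whole animal rather than to a cell type.

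CC chemokines are small secreted proteins that bind G protein-coupled receptors on leukocytes and guide the cells along gradients. In the infarcted heart, Ly6C-high monocytes leave the bone marrow and enter the injured muscle by means of the receptor CCR2, and there they become macrophages that clear debris. Ccl2, Ccl7 and Ccl12 encode ligands of CCR2, Ccl8 encodes a related monocyte chemoattractant that in mice acts largely through CCR8, Ccl3 and Ccl4 encode macrophage inflammatory proteins (that of Ccl3 binds CCR1), Ccl6 and Ccl9 encode CCR1 ligands made by myeloid cells, and Ccl24 encodes an eotaxin that binds CCR3 on eosinophils and is made by alternatively activated macrophages.

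In mm10 coordinates, 8 of the 10 genes lie on chromosome 11. Ccl2 (chr11:82035571-82037453), Ccl7 (chr11:82045712-82047525), Ccl12 (chr11:82101845-82103400) and Ccl8 (chr11:82115185-82116799) stand in this order on the plus strand, with Ccl11 between Ccl7 and Ccl12, within 81.2 kb. Farther along, Ccl9 (chr11:83572919-83578636), Ccl6 (chr11:83587882-83593087) and Ccl3 (chr11:83647844-83649355) lie on the minus strand and Ccl4 (chr11:83662584-83664683) on the plus strand. Ccl24 lies at chr5:135569937-135573049 on the minus strand and Ccr2 at chr9:124101950-124113557 on the plus strand. Antisense genes span Ccl2 (Gm17268) and Ccl6 (E230016K23Rik), with 0 shared exon bases and at most 11 counts in any library.

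RefSeq promoters were matched for 6 of the 10 genes, Ccl8, Ccl12, Ccl3, Ccl6, Ccl9 and Ccr2. The 250 bases before the RefSeq start (GRCm38.p6, the assembly of mm10) are shown for the neighbours Ccl12 and Ccl8, of which Ccl8 alone had separate A10i and DMSO values, for Ccl3, whose values were separate in the other direction, and for Ccl6 and Ccl9, whose levels ran most closely together. Each is written 5′ to 3′ on the strand of its gene, and capitals mark matches on either strand to any of 8 motifs: TATAAA (the core promoter box), GGGANTTTC and GGAANTTCC (NF-kB), TGANTCA (AP-1), TTGCNNCAA and TTGCNNAAA (C/EBP), TTCNNNGAA (STAT) and GAAANNGAA (interferon response).
Ccl8: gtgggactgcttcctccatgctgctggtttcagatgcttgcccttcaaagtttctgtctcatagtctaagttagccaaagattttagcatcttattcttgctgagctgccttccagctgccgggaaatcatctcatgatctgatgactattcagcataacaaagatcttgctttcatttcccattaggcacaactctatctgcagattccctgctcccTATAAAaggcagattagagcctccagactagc
Ccl12: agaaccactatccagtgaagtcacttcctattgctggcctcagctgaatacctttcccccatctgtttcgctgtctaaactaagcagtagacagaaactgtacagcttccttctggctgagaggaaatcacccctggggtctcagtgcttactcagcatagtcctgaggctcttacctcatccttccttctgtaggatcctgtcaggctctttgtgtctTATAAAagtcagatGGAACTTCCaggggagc
Ccl3: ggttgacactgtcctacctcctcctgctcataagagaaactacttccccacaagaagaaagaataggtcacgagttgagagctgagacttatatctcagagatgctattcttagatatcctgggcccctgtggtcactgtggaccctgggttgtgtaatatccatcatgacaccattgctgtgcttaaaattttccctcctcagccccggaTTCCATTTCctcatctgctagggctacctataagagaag
Ccl6: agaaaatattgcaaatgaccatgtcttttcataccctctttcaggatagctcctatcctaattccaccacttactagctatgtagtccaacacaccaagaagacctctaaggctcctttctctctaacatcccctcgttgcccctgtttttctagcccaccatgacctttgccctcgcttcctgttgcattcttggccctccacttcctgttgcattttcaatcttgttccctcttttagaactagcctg
Ccl9: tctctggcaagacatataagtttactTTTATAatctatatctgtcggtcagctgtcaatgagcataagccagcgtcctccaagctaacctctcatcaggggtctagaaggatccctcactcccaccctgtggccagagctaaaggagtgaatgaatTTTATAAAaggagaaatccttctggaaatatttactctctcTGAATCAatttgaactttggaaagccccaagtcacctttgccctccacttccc

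The windows are chr11:82114935-82115184 (Ccl8, plus strand), chr11:82101595-82101844 (Ccl12, plus), chr11:83649379-83649628 (Ccl3, minus), chr11:83593088-83593337 (Ccl6, minus) and chr11:83578637-83578886 (Ccl9, minus). A TATA box began 32 bases before the start of Ccl8 and 31 bases before that of Ccl12, and 12.4% of 32851 promoter windows of this length held this motif. Ccl12 also held an NF-kB match 17 bases before its start, a motif found in 0.813% of windows, and Ccl8 held none of either NF-kB motif. Aligned end to end, the windows of Ccl8 and Ccl12 were identical at 147 bases, 58.8% of the window, against 49.6% to 55.2% for the other pairs of the 6 matched genes. Ccl9 held an AP-1 match (6.75% of windows) and 3 TATA matches, 2 of which overlap. Ccl3 held an interferon response match 39 bases before its start (7.13% of windows), and Ccl6 held no match to the 8 motifs. These matches describe letters in the window and were not linked to the expression values by a test.

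The total count per library lay between 21702623 and 29511768 (two-sided exact permutation test between A10i and DMSO, p = 0.200). Between A10i and DMSO, 0 of 16792 tested genes (0%) passed the threshold of an adjusted p of 0.01 in edgeR (quasi-likelihood F-test, Benjamini-Hochberg), 2323 had an unadjusted p under 0.05, limma-voom also called 0 and DESeq2 called 231 (1.32% of 17508). The study itself reported genes significantly higher and lower with A10i at a false discovery rate of 0.01. Its method was DESeq2 with independent hypothesis weighting, so the number called depends on the method. Against sham, 3858 genes passed with DMSO (2215 higher and 1643 lower) and 3879 with A10i (2333 and 1546). With scaling by library size alone these splits were 3330 and 708 with DMSO and 3436 and 577 with A10i, and 9 of the 10 chemokine genes were called higher in both as under the main scaling. Heart muscle markers (6 genes) summed to 64167 to 65519 counts per 1000000 (CPM) in sham hearts and 30725 to 50193 in infarcted hearts.

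The first question was which of these chemokines differ between infarcted and healthy hearts, and 9 of the 10 genes rose after MI with DMSO and with A10i alike, Ccl24 being the exception. The rise with DMSO was led by the CCR2 ligands Ccl2 (35.2-fold) and Ccl7 (31.5-fold), and was smallest, among the genes that passed, for Ccl12. The 9 genes compare with 12.9% of all tested genes called higher and 9.60% called lower with DMSO, and with 13.7% and 9.11% with A10i. Median log2 fold changes of the 10 genes were 2.94 with DMSO and 2.76 with A10i, against 0.00 and -0.01 over all tested genes. Both comparisons use the same 3 sham mice. In bulk tissue, more cells of a type and more RNA per cell cannot be told apart, in these and all later comparisons.

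**Figure D1:**
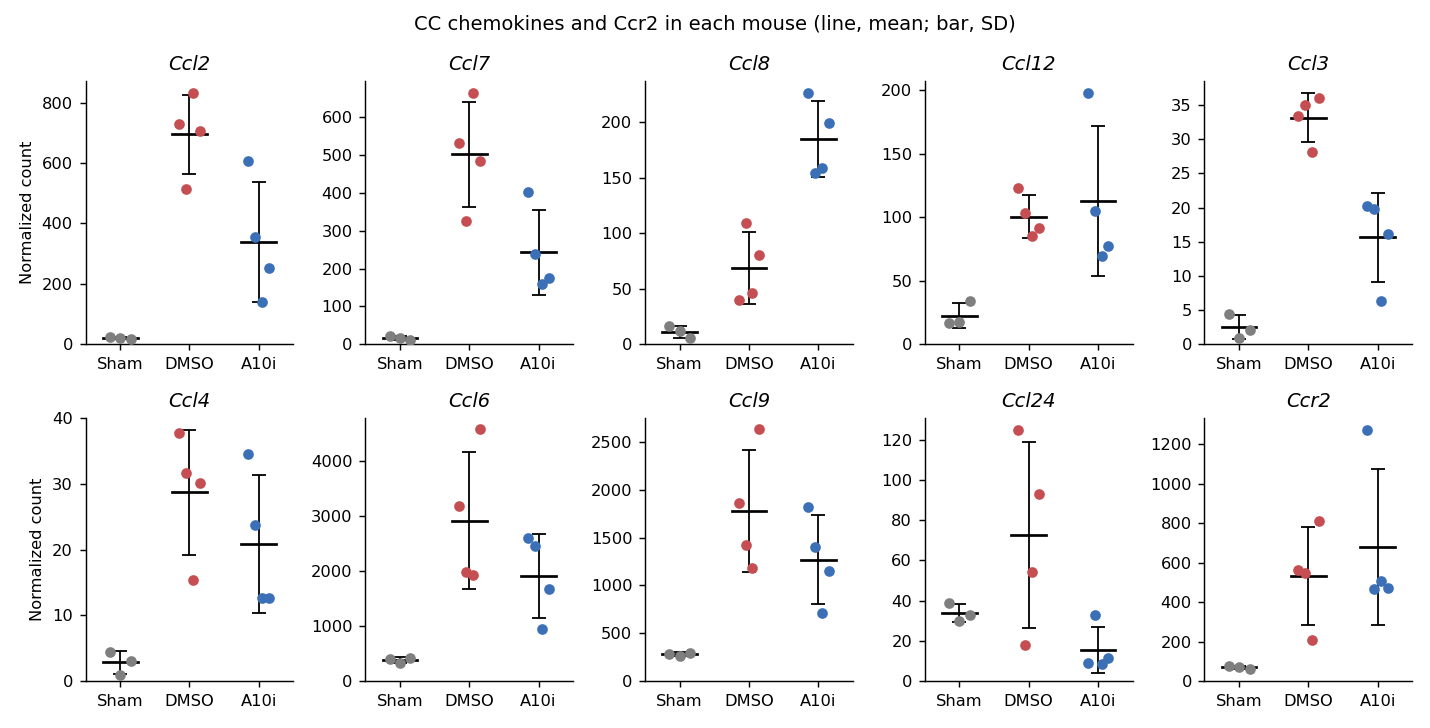
Normalized count (linear axis from 0) of each of the 10 genes in every mouse, with 3 sham, 4 DMSO and 4 A10i mice per panel. Points are mice, the horizontal line is the group mean and the bar is 1 SD. Sham points lie below all infarcted points in every panel except Ccl24, and the DMSO and A10i points are separate only for Ccl8 and Ccl3.

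Ccl2, the main CCR2 ligand that draws monocytes from the blood, had 16.5, 19.1 and 23.3 normalized counts in sham mice and 515, 706, 728 and 831 in DMSO mice. The groups were far apart, and the log2 fold change was 5.14 ± 0.221 (SE, edgeR adjusted p = 1.07e-05), the smallest adjusted p of all genes in that comparison. With A10i the values were 140.4, 252, 356 and 608, each above every sham mouse (4.11 ± 0.566, edgeR adjusted p = 0.00112).

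Ccl7, which encodes another ligand of CCR2 from the adjoining gene, had 10.3, 15.3 and 22.1 normalized counts in sham mice. It reached 326, 485, 533 and 663 with DMSO (edgeR log2 fold change 4.98 ± 0.330, adjusted p = 4.17e-05) and 158, 174, 238 and 403 with A10i (3.94 ± 0.434, edgeR adjusted p = 3.87e-04). All infarcted mice lay above all sham mice.

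Ccl12, a CCR2 ligand found in rodents, had 16.6, 17.2 and 34.0 normalized counts in sham mice, 85.0, 91.3, 103 and 123 with DMSO, and 69.7, 77.0, 104.9 and 198 with A10i. The rise was 2.14 ± 0.285 with DMSO and 2.31 ± 0.448 with A10i (log2 fold change, edgeR adjusted p = 5.81e-04 and 0.00402). Without sham mouse S1 or S2 the A10i value was 2.14 in each case and no longer passed (edgeR adjusted p = 0.0216 and 0.0198). Ccl8 had 5.15, 11.5 and 16.6 normalized counts in sham mice, and rose by 2.63 ± 0.477 with DMSO and 4.06 ± 0.300 with A10i (log2 fold change, edgeR adjusted p = 0.00265 and 6.77e-05). The DMSO call for Ccl8 was lost without sham mouse S2 (2.66, edgeR adjusted p = 0.0162) or S3 (2.29, adjusted p = 0.0138).

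Ccl3 and Ccl4, neighbouring genes for macrophage inflammatory proteins, were close to the limit of detection in sham hearts, with 7 and 8 counts summed over the 3 libraries. Summed counts, scaled for library size, were 13.8 times those of sham for Ccl3 with DMSO (95% exact interval 6.52 to 34.9, counting error only) and 6.56 times with A10i (3.00 to 17.0). For Ccl4 the ratios were 10.3 (5.04 to 24.3) and 7.75 (3.75 to 18.6). In edgeR, Ccl3 rose by 3.71 ± 0.413 and 2.64 ± 0.595 (log2 fold change, adjusted p = 2.63e-04 and 0.00618), and Ccl4 by 3.31 ± 0.513 and 2.88 ± 0.586 (adjusted p = 0.00115 and 0.00376). The A10i calls of both genes rest on all 3 sham mice: leaving out any of them gave adjusted p-values of 0.0134, 0.0338 and 0.0309 for Ccl3 and 0.0125, 0.0214 and 0.0182 for Ccl4 (without S1, S2 and S3). Without A10i mouse A116, A117 or A120, Ccl3 did not pass the expression filter and was not tested.

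The CCR1 ligand genes Ccl6 and Ccl9 were already well expressed in healthy hearts. Ccl6 had 321, 393 and 423 normalized counts in sham mice and 1935, 1976, 3191 and 4579 with DMSO (edgeR log2 fold change 2.94 ± 0.327, adjusted p = 3.75e-04). With A10i it had 946, 1666, 2455 and 2599 (2.34 ± 0.346, edgeR adjusted p = 0.00161, or 2.17 and 0.0176 without mouse A116). Ccl9 had 258 to 296 normalized counts in sham mice and rose by 2.67 ± 0.270 with DMSO and 2.19 ± 0.294 with A10i (edgeR adjusted p = 2.59e-04 and 0.00102).

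Ccr2, which marks inflammatory monocytes and the macrophages that arise from them, had 61.9, 71.7 and 75.3 normalized counts in sham mice and 208, 547, 564 and 813 with DMSO. It rose by 2.93 ± 0.426 with DMSO and by 3.29 ± 0.446 with A10i (log2 scale, edgeR adjusted p = 0.00115 and 0.00111). Without the expression filter neither call passed (adjusted p = 0.0153 and 0.0106). Ccl24 had 29.6, 33.0 and 38.8 normalized counts in sham mice and 18.0, 54.4, 93.3 and 125 with DMSO, so that the DMSO mice lay on both sides of sham (1.09 ± 0.547, edgeR adjusted p = 0.143). With A10i, Ccl24 had 8.44, 9.12, 11.5 and 32.6, below the sham range in 3 of 4 mice (-1.10 ± 0.432, edgeR adjusted p = 0.0667, or -1.79 and 0.00187 without mouse A117). Leaving out any other mouse gave -1.19 to -0.90, with edgeR adjusted p-values of 0.107 to 0.178.

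**Figure D2:**
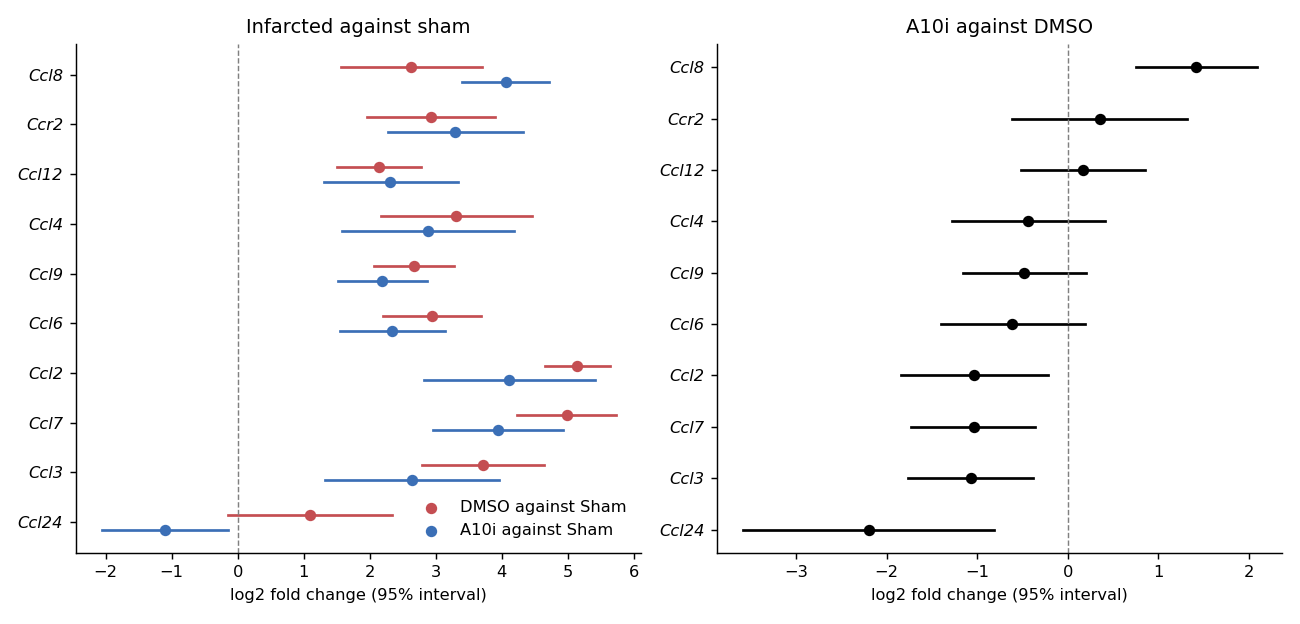
Log2 fold change of each gene with its 95% interval from edgeR. The left panel sets DMSO (red) and A10i (blue) against the same sham mice, and the right panel sets A10i against DMSO. In the right panel the intervals of Ccl8 (above 0) and of Ccl2, Ccl7, Ccl3 and Ccl24 (below 0) leave out 0, while 0 of the 10 genes passed the adjusted threshold.

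The second question was whether these genes differ between A10i and DMSO after MI. In edgeR 0 of the 10 genes passed the adjusted threshold. The estimates pointed in different directions: Ccl2, Ccl7, Ccl3, Ccl4, Ccl6, Ccl9 and Ccl24 were lower with A10i, and Ccl8, Ccl12 and Ccr2 were higher. At an unadjusted p under 0.05, 4 were lower (Ccl2, Ccl7, Ccl3 and Ccl24) against 6.73% of all tested genes, and 1 was higher (Ccl8) against 7.10%. Values of A10i and DMSO mice did not overlap for Ccl3, which was lower as in 4.11% of tested genes, and for Ccl8, which was higher as in 4.01%. The median log2 fold change of the 10 genes was -0.54, against 0.00 over all tested genes. DESeq2 called 2 of the 10, Ccl8 (adjusted p = 5.54e-04) and Ccl24 (adjusted p = 0.00987), beside 1.32% of all genes. The adjusted p of Ccl24 was 0.174 in edgeR and 0.265 in limma-voom, and that of Ccl8 was 0.0960 and 0.0876.

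Among the CCR2 ligands, Ccl2 averaged 695 ± 132 normalized counts with DMSO and 339 ± 199.9 with A10i (SD, n = 4 each). Only A10i mouse A116, with 608, reached the DMSO range, and mouse A119 was lowest with 140.4. The log2 fold change was -1.03 (95% interval -1.84 to -0.22, edgeR unadjusted p = 0.0180, adjusted p = 0.252). Ccl7 averaged 502 ± 139 and 243 ± 112, and again only A116, with 403, entered the DMSO range (-1.04, 95% interval -1.73 to -0.36, edgeR adjusted p = 0.187). Ccl2 and Ccl7 kept nearly the same proportion to each other, with 1.25 to 1.58 Ccl2 counts per Ccl7 count in DMSO mice, 0.887 to 1.51 in A10i mice and 1.05 to 1.60 in sham mice.

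Ccl12 did not follow them. It averaged 101 ± 16.6 with DMSO and 112 ± 58.9 with A10i (log2 fold change 0.17, 95% interval -0.52 to 0.86, edgeR adjusted p = 0.855), and without A116 the estimate was -0.25. The ratio of Ccl2 to Ccl12 counts was 5.01 to 9.77 in DMSO mice, 2.02 to 3.40 in A10i mice and 0.485 to 1.40 in sham mice, so the 3 groups were apart.

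Ccl8 lay furthest in the other direction. It had 39.9, 45.9, 80.3 and 109 normalized counts with DMSO and 154, 159, 199 and 226 with A10i. Every A10i mouse lay above every DMSO mouse, and the log2 fold change was 1.42 ± 0.297 (95% interval 0.76 to 2.09, edgeR unadjusted p = 7.71e-04, adjusted p = 0.0960). Leaving out each mouse in turn gave 1.24 to 1.74, with adjusted p-values of 0.0504 to 0.280. Per Ccl2 count there were 0.0548, 0.0553, 0.114 and 0.211 Ccl8 counts in DMSO mice, 0.372, 0.433, 0.790 and 1.14 in A10i mice and 0.312 to 0.714 in sham mice. The A10i and sham ranges of this ratio overlapped and both lay above the DMSO range. The sham ratios rest on 5 to 15 Ccl8 and 16 to 21 Ccl2 raw counts per library. With A10i both genes lay above every sham mouse.

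**Figure D3:**
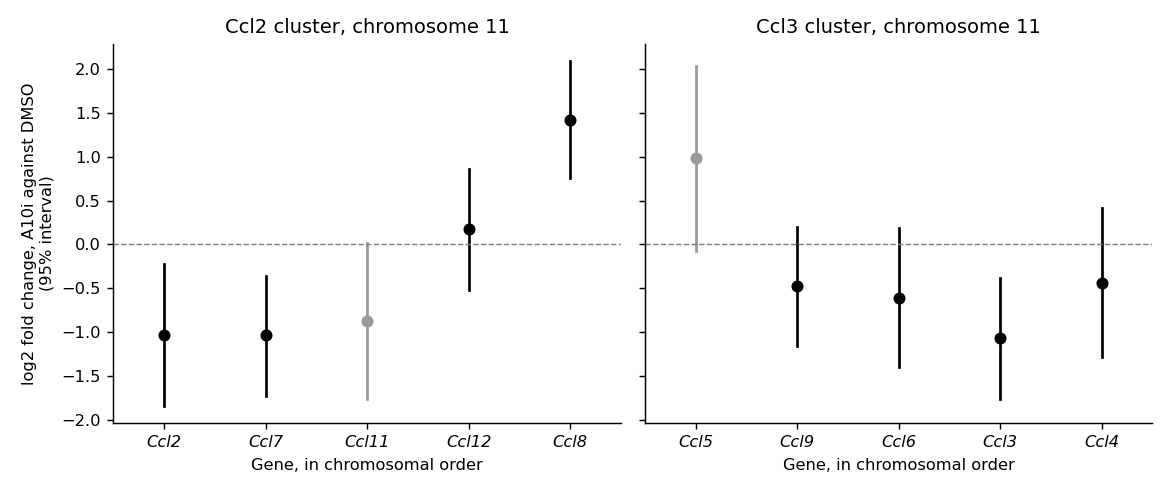
Log2 fold change of A10i against DMSO (edgeR, vertical bars are 95% intervals) for the CC genes of chromosome 11, placed in chromosomal order at equal spacing. Black marks the genes examined here, grey their neighbours Ccl11 and Ccl5. In the left panel the estimates run from -1.03 for Ccl2 to 1.42 for Ccl8, and in the right panel Ccl9, Ccl6, Ccl3 and Ccl4 all lie below 0.

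Along the first cluster on chromosome 11 the estimates were -1.03 for Ccl2, -1.04 for Ccl7, -0.88 for Ccl11 (an eotaxin gene, edgeR adjusted p = 0.367), 0.17 for Ccl12 and 1.42 for Ccl8. Ccl12 and Ccl8 start 66.3 and 79.6 kb after Ccl2. In the second cluster, the estimates for Ccl9, Ccl6, Ccl3 and Ccl4 were all negative, and that of the neighbouring gene Ccl5, a chemokine of T cells and macrophages, was 0.98 (edgeR adjusted p = 0.400). None of these genes passed the threshold, so the order describes estimates only.

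Ccl3 had 28.1, 33.4, 35.1 and 36.1 normalized counts with DMSO and 6.33, 16.1, 19.8 and 20.3 with A10i. All A10i mice lay below all DMSO mice, and the log2 fold change was -1.07 ± 0.311 (95% interval -1.76 to -0.38, edgeR adjusted p = 0.178). Ccl3 had 6 to 20 raw counts in the A10i libraries, which limits its precision. Ccl4 overlapped widely, with 15.3 to 37.7 normalized counts with DMSO and 12.6 to 34.5 with A10i (-0.44, 95% interval -1.28 to 0.41, edgeR adjusted p = 0.665).

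Ccl6 averaged 2920.3 ± 1249.9 normalized counts with DMSO and 1916 ± 766 with A10i (log2 fold change -0.61, 95% interval -1.40 to 0.19, edgeR adjusted p = 0.490). Ccl9 averaged 1775 ± 638 and 1269.5 ± 464 (-0.48, 95% interval -1.16 to 0.20, edgeR adjusted p = 0.528). DMSO mouse A129 was highest and A10i mouse A119 lowest for both genes. Ccl6 counts per Ccl9 count lay between 1.34 and 1.76 in all infarcted mice and between 1.24 and 1.43 in sham mice.

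Ccl24 had the largest difference in size of the 10 genes and the widest spread. It averaged 72.7 ± 46.5 normalized counts with DMSO and 15.4 ± 11.6 with A10i, and the groups overlapped through DMSO mouse A127 (18.0) and A10i mouse A117 (32.6). The log2 fold change was -2.20 ± 0.621 (95% interval -3.59 to -0.81, edgeR adjusted p = 0.174). Leaving out each mouse in turn gave -2.88 (without A117) to -1.80 (without DMSO mouse A105), with edgeR adjusted p-values of 0.0667 to 0.427. Ccr2 averaged 533 ± 249 with DMSO and 680.1 ± 397 with A10i (0.36, 95% interval -0.61 to 1.32, edgeR adjusted p = 0.765). The A10i mean of Ccr2 rests on mouse A116 with 1275 normalized counts, since the other A10i mice had 466, 471 and 508, and without A116 the estimate was -0.14.

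Counts of Ccl2 were also set against those of Ccr2, the gene for the receptor that the Ccl2 product binds. There were 0.868 to 4.0 Ccl2 counts per Ccr2 count in DMSO mice, 0.277 to 0.764 in A10i mice and 0.267 to 0.309 in sham mice, so that the DMSO and A10i ranges did not overlap. For Ccl7 the same ratio was 0.596 to 3.20 with DMSO and 0.312 to 0.512 with A10i, whereas for Ccl12 it was 0.112 to 0.410 and 0.137 to 0.225. These and the earlier ratios combine genes whose own values are given above, and they were not tested. How often ratios of other gene pairs separate the groups was not counted.

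Levels were compared between genes as transcripts per 1000000 (TPM), which take account of gene length. Ccl6 led in every group, with 17.4 ± 2.35 TPM in sham, 161 ± 80.2 with DMSO and 104 ± 45.9 with A10i (SD). In sham hearts Ccl9 (7.52) came next in every mouse, then Ccl12 (3.47), followed by Ccl24, Ccl8, Ccl7 and Ccl2 between 1.42 and 2.15, where neighbours overlapped. With DMSO, Ccl7 (60.9), Ccl2 (59.5) and Ccl9 (57.6) followed Ccl6 and could not be separated from each other, with Ccl12 (18.1) and Ccl8 (13.3) below them. With A10i the order was Ccl9 (40.8), Ccl8 (35.1), Ccl7 (29.9), Ccl2 (29.5) and Ccl12 (20.6), and each overlapped its neighbour in range. Ccl3, Ccl4 and Ccl24 were the lowest ligands after MI, at 1.14 to 5.41 TPM.

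**Figure D4:**
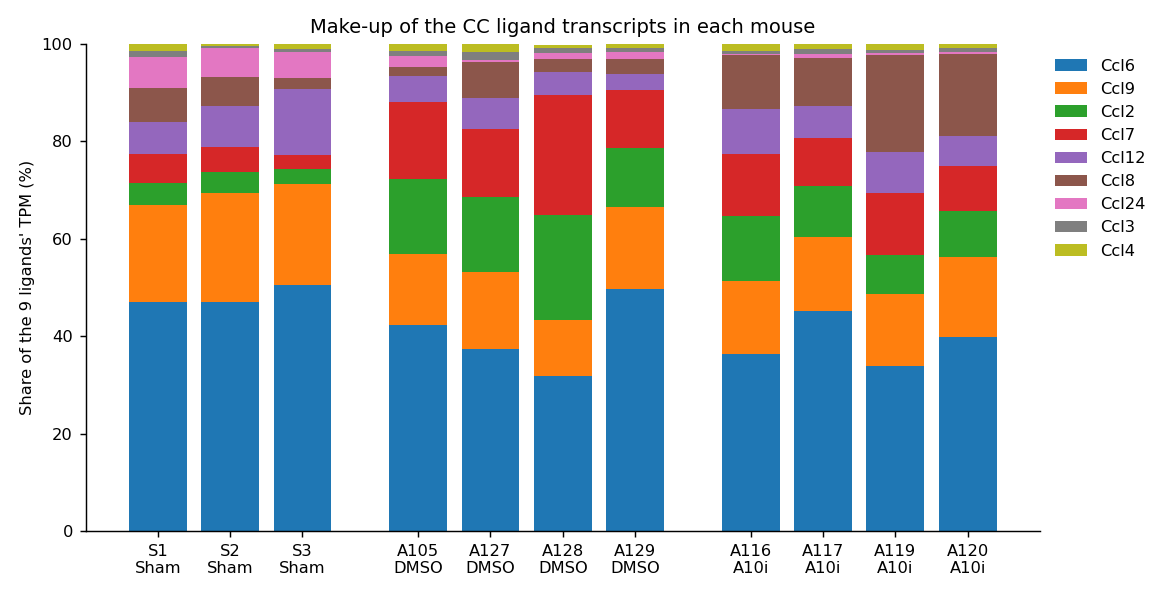
Share (%) of each of the 9 ligands in their summed TPM, 1 bar per mouse, grouped as sham, DMSO and A10i. Ccl8 (brown) takes 1.86% to 7.25% in DMSO mice and 9.99% to 20.0% in A10i mice. Green and red show Ccl2 and Ccl7, whose ranges in DMSO and A10i mice overlap.

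The 9 ligands summed to 36.0 ± 3.97 TPM in sham hearts, 384 ± 118.7 with DMSO and 266 ± 116.9 with A10i (SD), the last 2 overlapping with ranges of 288 to 556 and 144 to 419. Ccl8 took 1.86% to 7.25% of this sum with DMSO, 9.99% to 20.0% with A10i and 2.16% to 6.99% in sham hearts. Ccl2 took 12.1% to 21.6% with DMSO and 7.93% to 13.4% with A10i, and Ccl7 took 11.8% to 24.5% and 9.32% to 12.7%. Ccl6 and Ccl9 held similar shares in both infarcted groups, with means of 40.4% and 38.9% for Ccl6 and 14.7% and 15.4% for Ccl9. Shares of a sum move together, and they were not tested.

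The closest patterns over the 8 infarcted libraries were measured as the root mean square difference of log2 CPM, each gene set to its own mean. Ccl6 and Ccl9 were each other's nearest gene, at 0.15, followed for Ccl6 by Igfbp3 and Pgf, and for Ccl9 by Sla and Igsf6. Ccl2 was nearest to Mmp8 (0.22), a collagenase of neutrophils, then Ch25h and Ccl7 (0.25 each), and Ccl7 to Selp (0.17), Ch25h and Ereg (0.20 each). Ccl8 was nearest to Fcrls (0.27), Col8a2 and Mfap4 (0.30 each), while its distance to Ccl2 was 1.55. Ccl12 was nearest to Sdf2l1 (0.21), Pdia4 and Ppfia4, Ccl3 to Ifitm6 (0.28), Il17ra and Sphk1, and Ccl4 to Runx3 (0.24), Clec7a and Slc16a6. Ccr2 was near to Gm36161 (0.18) and Bcl2a1b (0.20), and Ccl24 was nearest to Mirt1 (0.63), Prg4 (0.70) and Fpr2 (0.74). The distances are not scaled to a gene's own spread, which ran from 0.44 for Ccl12 to 1.40 for Ccl24, so they cannot be ranked between genes. These distances share libraries, depth and the A10i and DMSO difference, and are given as a description.

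**Figure D5:**
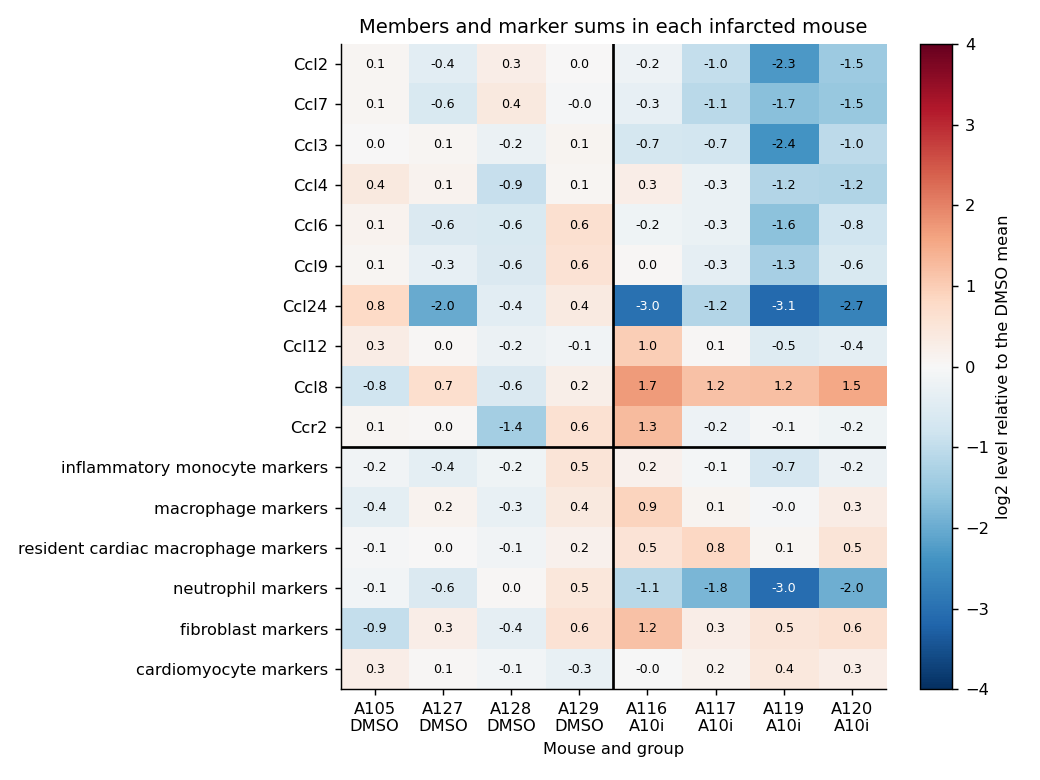
Log2 level relative to the DMSO mean in each infarcted mouse, for the 10 genes (normalized counts, above the line) and for summed CPM of marker lists (below the line). Columns are mice, DMSO left and A10i right, red above and blue below the DMSO mean. Neutrophil markers and Ccl2, Ccl7, Ccl3, Ccl6 and Ccl24 are below 0 in every A10i mouse. Ccl8 and the resident cardiac macrophage and fibroblast markers are above 0 in every A10i mouse. Mouse A116 has the highest Ccr2 and macrophage marker values.

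Marker levels of the cells that make or follow these chemokines moved as follows. The 8 inflammatory monocyte markers summed to 68.0 to 78.3 CPM in sham, 161 to 302 with DMSO and 131 to 234 with A10i (two-sided exact permutation test of log2 sums between A10i and DMSO, p = 0.600). The 10 macrophage markers summed to 333 to 363, 551 to 944 and 706 to 1352 (exact permutation p = 0.286), and the 6 markers of resident cardiac macrophages to 148 to 151, 157 to 194 and 182 to 311 (exact permutation p = 0.0571). The 10 neutrophil markers summed to 1.76 to 3.03, 88.1 to 179 and 15.9 to 60.6, with the A10i range wholly under the DMSO range (exact permutation p = 0.0286, the smallest that 4 against 4 mice can give). They include S100a8, S100a9 and Mmp9, which the study had already reported as lower with A10i in these libraries. The neutrophil values are thus partly a restatement of that result. At an unadjusted p under 0.05 in edgeR, where 6.73% of all tested genes were lower and 7.10% higher with A10i, all 9 neutrophil markers tested were lower. At that level 2 of 7 inflammatory monocyte markers were lower, 4 of 10 macrophage markers were higher and 1 lower, and 4 of 6 resident macrophage markers were higher. The adjusted threshold was passed by 0 of them. The 4 endothelial markers summed to 712 to 727 CPM in sham, 555 to 673 with DMSO and 677 to 771 with A10i, again without overlap between DMSO and A10i (exact permutation p = 0.0286). Further marker lists were compared in the same way, and the permutation p-values are not adjusted for the number of lists. The part of these cell markers in the lower Ccl2, Ccl7, Ccl3 and Ccl24 and in the higher Ccl8 was not tested. Mouse A116 had the highest Ccr2 and the highest sums of A10i mice for inflammatory monocyte (234), macrophage (1352) and fibroblast markers (3892 CPM, against 902 to 2627 with DMSO). Of the A10i mice it also had the highest neutrophil sum (60.6 CPM) and the lowest heart muscle sum (36854 CPM). The eosinophil markers Epx and Il5ra had at most 3 counts in every library, and the 4 eosinophil markers together summed to at most 1.45 CPM, and Ccr3, the receptor gene for the Ccl24 product, did not pass the expression filter.

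The other CC ligands were examined beside them. Of 13 listed, 7 passed the filter between A10i and DMSO, 5 higher and 2 lower with a median log2 fold change of 0.27, and 0 passed the adjusted threshold in edgeR. Ccl21a, a CCR7 ligand of lymphatic vessels with a near-identical copy that could share its reads, was higher with 214 to 303 against 123 to 180.3 normalized counts (0.62, edgeR unadjusted p = 0.00278, adjusted p = 0.143). It was the one such ligand with an unadjusted p under 0.05. Against sham, Ccl11 rose with DMSO (1.64, edgeR adjusted p = 0.00995) and was 0.77 higher with A10i (adjusted p = 0.119). Ccl21a rose with A10i (0.98, edgeR adjusted p = 0.00126) and was 0.36 higher with DMSO (adjusted p = 0.130). Ccl5 had 3 to 8 raw counts in sham, 1 to 13 with DMSO and 14 to 15 with A10i. It passed the expression filter against sham only through its A10i counts and was not tested with DMSO. Its log2 fold change of 1.49 with A10i is therefore given without a test.

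Of 14 other CC and atypical receptors, 7 passed the filter between A10i and DMSO, with a median of 0.02 and 0 past the adjusted threshold in edgeR. Ccrl2, which binds chemerin and presents it to leukocytes, was lower (-0.65, edgeR adjusted p = 0.105, DESeq2 adjusted p = 0.00545), and Ackr4, a scavenger of CCR7 ligands, was higher (1.01, edgeR adjusted p = 0.236). Ccr1, a receptor for Ccl3, Ccl6 and Ccl9 products, rose by 3.81 with DMSO and 3.09 with A10i against sham (log2 fold change, edgeR adjusted p = 2.39e-04 and 0.00209). The endothelial chemokine-binding receptor gene Ackr1 rose by 1.87 and 1.98 (edgeR adjusted p = 0.00528 and 0.00268). Ackr2, a decoy receptor that degrades inflammatory CC ligands, rose with A10i (0.95, edgeR adjusted p = 0.00287) and was 0.93 higher with DMSO (adjusted p = 0.0135).

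Of 19 genes for signalling below chemokine receptors (G proteins, kinases, arrestin and regulators of Rac), 11 rose with DMSO and 13 with A10i against sham and 0 fell in edgeR, beside 12.9% and 13.7% of all tested genes called higher. Their median log2 fold changes were 0.99 and 1.07. Between A10i and DMSO, 7 were higher and 12 lower, with a median of -0.03, 0 past the adjusted threshold and 0 at an unadjusted p under 0.05 in edgeR.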

How the data were processed

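Hearts of 11 mice, each a separate animal, were compared by their GEO groups (3 sham, 4 DMSO, 4 A10i). Per the labels and methods, the authors made strand-specific poly(A) libraries, aligned reads to mm10 with GSNAP after bcl2fastq (2.20.0) and counted them per Ensembl gene with featureCounts (2.0.1). The strand setting is not given in the sources used here. The deposited values are raw counts. The 92 spike-in rows (14 to 55 counts per library) were left out, and GENCODE M21 named 55154 of 55421 identifiers.

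Each pair of groups was tested alone with edgeR 4.0.16 in R 4.3.3 (filterByExpr, TMM, robust glmQLFit and glmQLFTest, two-sided, Benjamini-Hochberg over all genes tested, threshold 0.01, the false discovery rate of the study). The authors used DESeq2 with independent hypothesis weighting, which was not used here. DESeq2 without that weighting (1.42.0) was run as an alternative beside limma-voom (limma 3.58.1), other normalizations and filters, a joint fit, a cut at 0.05 and fits that left out 1 library. The edgeR, DESeq2 and limma-voom fits were checked on simulated counts for A10i against DMSO and for DMSO against sham only. Normalized counts were obtained by dividing by TMM-adjusted library sizes (mean set to 1), and counts per 1000000 (CPM) use the same sizes. TPM use the gene lengths in the deposited table. Single values per mouse were compared by exact permutation, marker sums as log2 values, and counting intervals came from SciPy 1.17.1. Promoter windows were aligned globally (match 2, mismatch -1, gap opening -5, extension -0.5).

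All 10 genes are named, as are other CC ligands and receptors with an unadjusted p under 0.05 between A10i and DMSO, and for each of the 10 the 3 genes of most similar pattern (mean of at least 1 CPM, variance at least 0.25 of its own). Ccl5, Ccl11, Ccr1, Ccr3, Ackr1 and Ackr2 were named after their values were seen. The genes and lists were chosen with earlier results of these data known. One gene that these rules would name is not reported here.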

Additional observations from a re-analysis of the deposited data

Results flagged for a closer look

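Of 44 groups of 4 infarcted mice examined for 1 mouse far from the others, 4 held such a mouse. Chance gives about 1 in 20 groups where values are independent and normally distributed. That was not checked for these values, and the groups share the same mice. Ccl24 in A10i mouse A117 had 32.6 normalized counts, against 8.44 to 11.5 in the other A10i mice. Ccr2 in A10i mouse A116 had 1275 normalized counts, against 466 to 508 in the others. Mast cell markers summed to 20.3 CPM in DMSO mouse A129, against 9.05 to 10.1 in the other DMSO mice. Red blood cell markers summed to 5026 CPM in A10i mouse A117, against 1049 to 1388 in the others.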

How the results depend on the processing

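Between A10i and DMSO, the 0 genes called became 12 at an adjusted p of 0.05, 231 with DESeq2 (106 higher, 125 lower), 11 with all 11 libraries in one fit, 43 without the expression filter and 0 to 1 on leaving out each mouse. Of the 10 chemokine genes DESeq2 called 2, Ccl8 and Ccl24, beside 1.32% of all genes. Against sham, 3858 genes with DMSO and 3879 with A10i became 6832 and 6671 at an adjusted p of 0.05. At the main threshold of 0.01 but without a sham mouse, the genes called were 1542, 1525 and 1540 with DMSO (without S1, S2 and S3) and 1620, 1714 and 1664 with A10i, and leaving out any mouse gave 1525 to 4051 and 1620 to 4365. Without the filter, 4 of the 10 genes passed for A10i against sham and 8 for DMSO against sham, with adjusted p-values for A10i of 0.0114 (Ccl2), 0.0210 (Ccl12), 0.0142 (Ccl6), 0.0103 (Ccl9) and 0.0106 (Ccr2). Between A10i and DMSO, Ccl12 (-0.25) and Ccr2 (-0.14) changed sign without mouse A116, and leaving out each mouse gave -0.25 to 0.34 and -0.14 to 0.64. Ccl3 against sham with A10i had an adjusted p of 0.0128 in limma-voom. Of 478 values for the 10 chemokine genes under these alternatives, 2 changed sign, 3 gained and 18 lost their call. The other CC ligands and receptors, and chemokine genes that an alternative left untested, are not part of this count. Scaling by library size alone shifted the median of all genes by 0.21 (DMSO) and 0.18 (A10i) against sham, on the log2 scale. Requiring 10 counts in every library left out Ccl3 and Ccl24 between A10i and DMSO. For DMSO against sham it left out Ccl8, Ccl3 and Ccl4, and for A10i against sham also Ccl24. In each of these sham comparisons 6 of the 10 genes were then called, all higher. No paired analysis was possible because the labels share no replicate numbers between groups.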
